A study of Rattus norvegicus with 16 samples.

Results

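The miRNAs described here are rno-miR-26a and rno-miR-26b, which form the miR-26 seed family, and rno-miR-101a and rno-miR-101b, which form the miR-101 seed family. They were found on the arrays by exact match of the name, which gave 4 of the 677 rat miRNAs measured. All 4 were detected on all 16 arrays and were among the 233 miRNAs tested. The animals were rat pups killed on day 2 after birth. The hypertrophic heart rat (HHR), an inbred strain with a polygenic enlargement of the heart, gave 4 females and 4 males, and the normal heart rat (NHR), its age-matched strain with hearts of normal size, gave 4 females and 4 males. The labels name no treatment and no pooling, so each array was taken to stand for 1 animal. The tissue is named as whole heart in one label and as ventricles separated from the atria in another.

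A miRNA guides the silencing complex to messenger RNAs mainly through its seed, the bases near its 5′ end, so miRNAs with the same seed share most of their targets. Ezh2 is the catalytic subunit of Polycomb repressive complex 2, which methylates histone H3 on lysine 27 and keeps developmental genes silent. In human and mouse cells, miR-101 and miR-26a have been reported to repress Ezh2 through its messenger RNA, and in rodent hearts and cultured cardiomyocytes both families have been reported to oppose hypertrophic growth or fibrosis. Ezh2 itself was not measured on these arrays.

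The 4 mature sequences, with miR-144 for comparison, are shown because the 2 families are defined by their seeds and because the members of each family differ at only 1 or 2 bases. The sequences are those of RefSeq on the GRCr8 build, 5′ to 3′, with the seed (bases 2 to 8) in capitals.
miR-26a: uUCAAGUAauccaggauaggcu
miR-26b: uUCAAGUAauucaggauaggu
miR-101a: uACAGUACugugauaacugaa
miR-101b: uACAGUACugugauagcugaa
miR-144: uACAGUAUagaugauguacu
Positions are counted from 1 at the 5′ end. Compared with miR-26a (22 bases), miR-26b (21 bases) carries C11U and C21U over the 21 bases they share. Compared with miR-101a, miR-101b carries A16G and is otherwise identical over 21 bases. The seed UCAAGUA was held by 2 and the seed ACAGUAC by 2 of the 693 mature rat miRNAs in the RefSeq table, so the 4 members are all the miRNAs of that table with either seed. miR-144, an erythroid miRNA, shares only the first 6 seed bases (ACAGUA) with miR-101.

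The 4 miRNAs come from 4 chromosomes. On GRCr8, mature miR-26a lies at chr8:127633063-127633084 on the plus strand, within the span of Ctdspl. Mature miR-26b lies at chr9:83425723-83425743 on the plus strand, within the span of Ctdsp1. Ctdspl and Ctdsp1 are paralogs that encode small phosphatases of the RNA polymerase II C-terminal domain. Mature miR-101a lies at chr5:121081691-121081711 on the minus strand, within the span of the long non-coding RNA gene LOC120102934. Mature miR-101b lies at chr1:236273982-236274002 on the plus strand, within the span of Rcl1, which encodes a protein of ribosomal RNA maturation. The annotation used here gives gene spans only, so whether each hairpin lies in an exon or an intron was not determined. The other strand of each hairpin was on the array as miR-26a*, miR-26b*, miR-101a* and miR-101b*, and each of these was detected on 0 of 16 arrays, so the signal of both families came from 1 arm.

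Each level below is the background-subtracted fluorescence of a miRNA, averaged over its probes after the arrays were brought to a common brightness, in array units. Between 204 and 235 miRNAs were detected per HHR array and between 200 and 239 per NHR array, and no miRNA spot on any array was saturated. Before scaling, HHR arrays were brighter, with a 75th percentile of the probe signal of 469.6 in HHR (SD 37.3, n = 8) against 378.4 in NHR (SD 87.3, n = 8), a gap of 91.2 (exact permutation test over 12870 splits, two-sided, p = 0.0191). The 8 HHR arrays lay between 417.7 and 525.2, while 5 NHR arrays lay between 294.7 and 326.8 and 3 between 442.7 and 502.9. Within the slides the gap in brightness was 106.4 on slide 1 (p = 0.114) and 76.0 on slide 2 (p = 0.229; two-sided exact permutation tests over 70 splits, n = 4 each). The labels and headers give no reason for this gap. In bulk tissue, fewer cells of a type and less RNA per cell cannot be told apart.

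The defining miRNAs of heart muscle (miR-1, miR-133a, miR-133b, miR-208*, miR-208b-3p and miR-499) were detected on all arrays in 6 of 6 cases. Their summed level ranged between 11726 and 13199 in HHR and between 12498 and 14160 in NHR. Neural (miR-124, miR-9), liver (miR-122) and epithelial (miR-200a, miR-200b, miR-200c, miR-141) markers were detected on no array. Other cell types of the heart were present, and under the reported scaling some of their marker sums lay apart between the strains. Of all tested miRNAs, 14.2% did not overlap between the strains, and the median log2 difference of HHR minus NHR was -0.106. The sums differed by -0.198 (endothelial), -0.125 (smooth muscle, close to that median) and -0.367 (leukocyte). The sum of endothelial miR-126 and miR-126* lay between 982 and 1096 in HHR, below the 1178 to 1295 of NHR. The sum of smooth muscle miR-143 and miR-145 lay between 1288 and 1361 in HHR, below the 1418 to 1504 of NHR. The sum of 4 leukocyte miRNAs (miR-142-3p, miR-142-5p, miR-150, miR-223), of which miR-142-5p was not detected, lay between 93.8 and 108.9 in HHR, below the 111.9 to 150.6 of NHR. The fibroblast sum (miR-199a-3p, miR-199a-5p, miR-214) overlapped, at 1266 to 1688 in HHR and 1197 to 1475 in NHR, as did the erythroid sum of miR-144 and miR-451, at 202.5 to 313.1 in HHR and 212.7 to 337.9 in NHR. With the percentile over all probes the endothelial, smooth muscle and leukocyte ranges overlapped. The endothelial sum then lay at 1075 to 1304 in HHR and 1006 to 1185 in NHR, the smooth muscle sum at 1324 to 1637 in HHR and 1188 to 1444 in NHR, and the leukocyte sum at 105.6 to 130.7 in HHR and 108.5 to 129.5 in NHR. With quantile normalization the endothelial sum stayed apart, at 988 to 1140 in HHR and 1160 to 1191 in NHR. The leukocyte sum stayed apart narrowly, at 101.9 to 116.8 in HHR and 116.9 to 141.0 in NHR. The smooth muscle sum overlapped, at 1356 to 1372 in HHR and 1371 to 1466 in NHR. The part of these cell types in the differences below was not tested.

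Abundance was described first. By brightness among the 677 miRNAs, miR-26a took places 16 to 18 on every array, miR-26b places 46 to 51, miR-101b places 97 to 111 and miR-101a places 127 to 145. These places rank array signal, which also depends on how each probe binds, and are not a ranking of molecule numbers. The places of miR-26a and miR-26b were thus nearly the same in every heart. Those of miR-101a were 127 to 133 in HHR and 131 to 145 in NHR. Those of miR-101b were 105 to 111 on the 5 dimmest arrays before scaling, all NHR, and 97 to 102 on all other arrays. The part of array brightness in these places was not tested. The 2 members of the miR-26 family were brighter on every array than both members of the miR-101 family.

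rno-miR-26a, which has been reported to target Ezh2 and, in mouse and rat cardiomyocytes, the growth transcription factor Gata4, was the brightest member. In HHR females its level was 830.2, 894.6, 850.6 and 879.5 and in HHR males 824.1, 841.2, 844.2 and 875.5, against 930.9, 878.9, 960.0 and 887.1 in NHR females and 940.9, 874.2, 929.7 and 865.8 in NHR males. The strains overlapped, with 5 HHR arrays below all NHR arrays and 4 NHR arrays above all HHR arrays. All 8 HHR values lay below the NHR median. The mean was 855 ± 25.3 in HHR against 908 ± 35.8 in NHR (SD, 8 arrays each).

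From low to high, the group means of miR-26a were 846 ± 21.4 in HHR males, 864 ± 28.8 in HHR females, 903 ± 38.2 in NHR males and 914 ± 38.1 in NHR females (SD, n = 4 each). The widest step, between HHR females and NHR males, was about as large as the SD of the NHR groups, and the other neighbours differed by less than their SDs.

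rno-miR-26b is the other carrier of the seed. In HHR females its level was 250.1, 273.4, 250.7 and 257.7 and in HHR males 251.9, 249.9, 260.2 and 262.5, against 274.8, 263.2, 271.1 and 262.4 in NHR females and 267.7, 263.2, 262.3 and 251.9 in NHR males. The strains overlapped more than for miR-26a, since HHR female 2 was above all NHR arrays but 1 and NHR male 4 lay among the lower HHR values. The mean was 257 ± 8.25 in HHR against 264.6 ± 6.89 in NHR (SD, 8 arrays each). From low to high, the group means were 256 in HHR males, 258 in HHR females, 261 in NHR males and 268 in NHR females, and the widest step, the last, was about as large as the SDs of those groups (6.71 in NHR males and 6.03 in NHR females).

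rno-miR-101a, the form of miR-101 encoded on chromosome 5, was the dimmest member. In HHR females its level was 21.9, 24.4, 23.3 and 23.7 and in HHR males 21.2, 22.3, 22.0 and 24.3, against 24.5, 23.3, 24.8 and 21.5 in NHR females and 25.5, 22.4, 22.3 and 21.9 in NHR males. The 2 strains covered nearly the same range, and 4 of the 8 HHR values lay below the NHR median. The mean was 22.9 ± 1.22 in HHR against 23.3 ± 1.48 in NHR (SD, 8 arrays each). The group means, 22.5 in HHR males, 23.0 in NHR males, 23.3 in HHR females and 23.5 in NHR females from low to high, differed by less than their SDs of 1.08 to 1.64. One of its 2 probes was well above background on only 14 of the 16 arrays, so this level was measured with the least margin.

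rno-miR-101b, which differs from miR-101a outside the seed, tended the other way under the reported scaling, but did not pass the test given below. In HHR females its level was 46.7, 47.0, 44.3 and 48.1 and in HHR males 46.3, 43.8, 44.8 and 45.0, against 43.9, 41.8, 48.4 and 42.1 in NHR females and 43.8, 43.0, 40.8 and 45.9 in NHR males. All 8 HHR values lay above the NHR median, and 4 NHR arrays lay below all HHR arrays, but NHR female 3 had the highest level of all. The mean was 45.7 ± 1.48 in HHR against 43.7 ± 2.46 in NHR (SD, 8 arrays each). From high to low, the group means were 46.5 in HHR females, 45.0 in HHR males, 44.0 in NHR females and 43.4 in NHR males, and no step between neighbours was larger than the wider of their SDs (1.01 to 3.05). NHR female 3 was also the brightest NHR array before scaling, at 502.9. The HHR arrays held miR-101b at 43.8 to 48.1, against 43.0 to 48.4 on the 3 bright NHR arrays and 40.8 to 43.9 on the 5 dim ones.

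**Figure D1:**
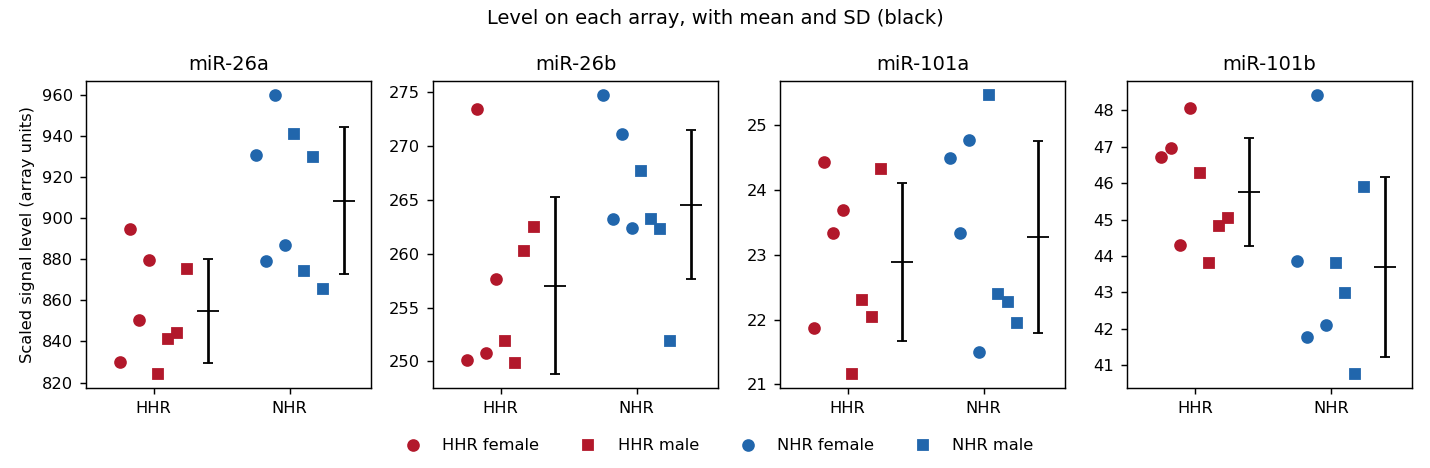
Scaled signal level (vertical axis, array units, axes not starting at 0) of each of the 4 miRNAs on each array, HHR left and NHR right, circles for females and squares for males; the black bars give the mean and SD of 8 arrays. The strains overlap for all 4, with miR-26a at 824.1 to 894.6 in HHR and 865.8 to 960.0 in NHR, and miR-101b placed the other way round.

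The probes of a miRNA gave the same direction. Each member was measured by 2 probes of 10 spots. The probe sequences were not available here, so whether a probe also binds the other member of its family was not tested. The log2 difference of HHR minus NHR was -0.085 and -0.088 for the probes of miR-26a and -0.040 and -0.043 for those of miR-26b. It was -0.046 and -0.0057 for the probes of miR-101a and 0.078 and 0.063 for those of miR-101b. The spots of a probe on 1 array varied by a median CV of 2.06% and 2.13% for miR-26a and 2.83% and 2.69% for miR-26b. It was 12.1% and 9.54% for miR-101a and 9.32% and 4.84% for miR-101b, so the dimmer family was measured less precisely.

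How the members differed between strains was then tested on the log2 scale with limma over all 233 tested miRNAs and Benjamini-Hochberg adjustment. Of the 4 members, 1 was called at an adjusted p below 0.05, miR-26a, which was lower in HHR. Over all tested miRNAs 54.5% were called, 9.01% higher and 45.5% lower in HHR, so 1 of 4 is not more than the background. Values of the strains did not overlap for 0 of the 4 members, against 14.2% of all tested miRNAs.

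miR-26a differed by -0.087 ± 0.029 (SE; 95% interval -0.149 to -0.025; n = 8 each; limma adjusted p = 0.0215), a 1.06-fold lower level in HHR. The median difference of all 233 miRNAs was -0.106 under the same scaling, so miR-26a lay 0.019 above that median, and 52.8% of the tested miRNAs had a lower difference. The fall in miR-26a was therefore no larger than that of the middle of the array. The call held in all 16 fits that left out 1 array (limma adjusted p between 0.0138 and 0.0443). It was lost within slide 1 (-0.097, limma adjusted p = 0.168), within slide 2 (-0.078, adjusted p = 0.281), on the arrays brighter than 400 (-0.097, adjusted p = 0.0637) and with brightness as a covariate (-0.079, adjusted p = 0.121), at nearly the same size.

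The other members did not pass the test. miR-26b differed by -0.042 ± 0.025 (95% interval -0.095 to 0.012; limma adjusted p = 0.165), and miR-101a by -0.023 ± 0.043 (95% interval -0.117 to 0.070; limma adjusted p = 0.663). miR-101b differed by 0.067 ± 0.035 (95% interval -0.0077 to 0.142; limma adjusted p = 0.114). Without NHR female 3, the difference of miR-101b was 0.090 with a limma adjusted p of 0.0193, so 1 array decided on which side of the threshold it fell. Within slide 1 and slide 2, miR-26b differed by -0.061 and -0.023, miR-101a by -0.093 and 0.047 and miR-101b by 0.091 and 0.043, with none called. Relative to the median of all tested miRNAs, miR-26b lay 0.064, miR-101a 0.083 and miR-101b 0.174 higher. All 4 members lay above that median, miR-101b highest, with 82.8% of the tested miRNAs below it.

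**Figure D2:**
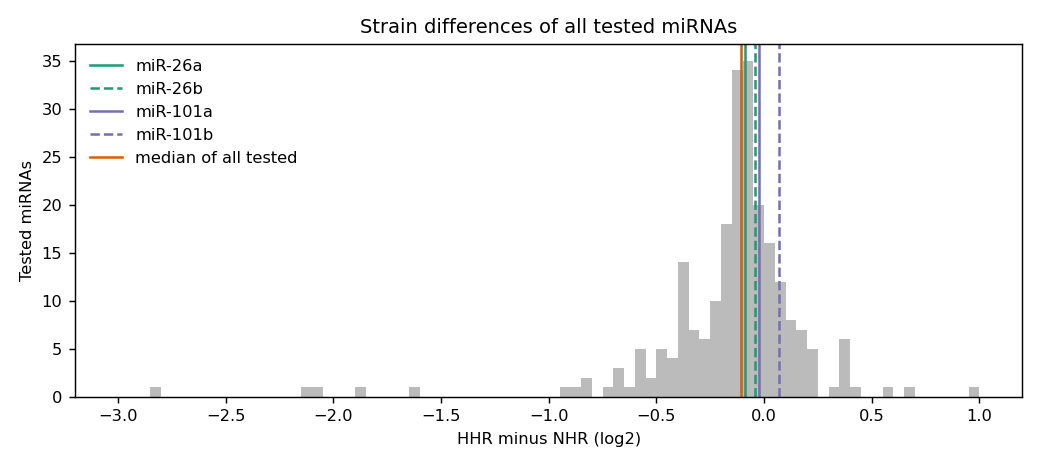
Histogram of the log2 difference HHR minus NHR (horizontal axis) of all 233 tested miRNAs (vertical axis, number of miRNAs), with a line for each of the 4 members and for the median of all tested. The median is -0.106; miR-26a at -0.087 is next to it and miR-101b at 0.067 is the only member right of 0.

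The same question was asked within each sex. In females, 0 of the 4 members were called, against 45.1% of all tested miRNAs, with log2 differences between -0.082 for miR-26a and 0.080 for miR-101b (limma adjusted p between 0.113 and 0.884). In males, 0 of the 4 were called, against 20.6% of all tested, with differences between -0.092 for miR-26a and 0.054 for miR-101b (limma adjusted p between 0.123 and 0.701). The sign of each strain difference was the same in both sexes under the reported scaling, and the SE within a sex (0.035 to 0.061) was larger than over both. These counts also turned with the scaling. With the percentile over all probes 4 of 4 were called higher in females (46.4% of all tested) and 3 of 4 in males (29.6%), with quantile normalization 2 in females (18.0%) and 1 in males (18.9% called in either direction), and with median centring 2 in females (20.2%). With the total gene signal 1 was called higher in females (8.58%). Without NHR female 3, miR-101b was called higher in females, at 0.13 (limma adjusted p = 0.0303), against 6.44% of all tested.

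Males and females were then compared over both strains. None of the 4 members passed the test, as was so for 0.0% of all tested miRNAs (23 had an unadjusted p below 0.05). The male minus female log2 differences of the members were between -0.044 and -0.023 (limma adjusted p = 0.970). The strain differences of males minus those of females were between -0.026 and 0.026 (limma adjusted p between 0.954 and 0.965), and again 0.0% of all tested miRNAs were called (9 had an unadjusted p below 0.05). The SE of these second differences was 0.050 to 0.087.

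Because HHR arrays were brighter, the difference was computed under other ways to make arrays comparable. Without any scaling, all 4 members were brighter in HHR by 0.25 (miR-26a), 0.30 (miR-26b), 0.32 (miR-101a) and 0.41 (miR-101b), with 0 of 4 called against 20.6% of all tested. The unscaled signals followed array brightness closely, and the 5 dim NHR arrays lay below every HHR array for each member. miR-26a, for example, had an unscaled signal of at least 832 on every HHR array, while its NHR values spanned 646 to 1139.

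**Figure D3:**
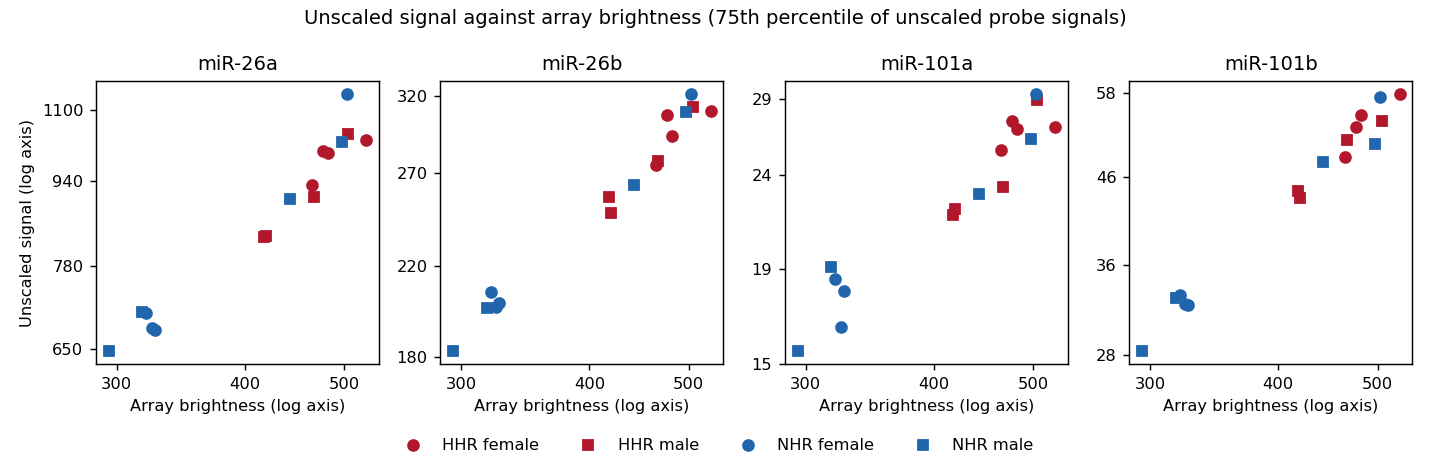
Unscaled signal of each member (vertical log axis, array units) against array brightness, the 75th percentile of the unscaled probe signal (horizontal log axis, array units), 1 point per array. In each panel the points follow brightness, with 5 NHR arrays at a brightness of 294.7 to 326.8 below all others. In brightness the 3 remaining NHR arrays lie among the 8 HHR arrays. NHR female 3 has the highest unscaled signal of all arrays for miR-26a, miR-26b and miR-101a.

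With the percentile taken over all probes, all 4 members were called higher in HHR, by 0.19 (miR-26a), 0.24 (miR-26b), 0.26 (miR-101a) and 0.35 (miR-101b), with limma adjusted p between 0.000367 and 0.00194. Under that scaling 66.5% of all tested miRNAs were called and 57.5% were called higher, and the median of all tested moved to 0.174. With quantile normalization the differences were -0.0040 for miR-26a (limma adjusted p = 0.873), 0.050 for miR-26b (0.162), 0.20 for miR-101a (0.00626) and 0.19 for miR-101b (0.00160). The last 2 were called higher, against 40.8% of all tested called and 24.5% called higher. With median centring they were 0.087, 0.13, 0.15 and 0.24 in the same order, and the last 3 were called higher, against 37.3% of all tested called and 25.8% called higher. The direction of miR-26a, miR-26b and miR-101a thus turned with the scaling, while that of miR-101b was positive under all 6 scalings of the processed signal, but negative on bright arrays alone (-0.020) and near 0 with brightness as a covariate (0.0057, limma adjusted p = 0.934). With a normexp background miR-101a (-0.19, adjusted p = 0.0310) and miR-101b (-0.12, adjusted p = 0.0365) were called lower, against 70.8% of all tested called and 70.0% called lower. With the total gene signal miR-101b was called higher (0.13, limma adjusted p = 0.0107), against 14.6% of all tested.

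Of the 6 scalings, all but quantile normalization shift each array by 1 factor, so a member's distance from the median of all tested miRNAs is nearly fixed by construction and their agreement on it is no sign of stability. miR-26a lay 0.019 above that median with the reported scaling and, at 0.193 against a median of 0.174, close to it with the percentile over all probes. With quantile normalization it lay slightly below, at -0.0040 against 0.022. miR-101b lay above the median by 0.174 with the reported scaling and, at 0.186 against 0.022, also with quantile normalization.

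**Figure D4:**
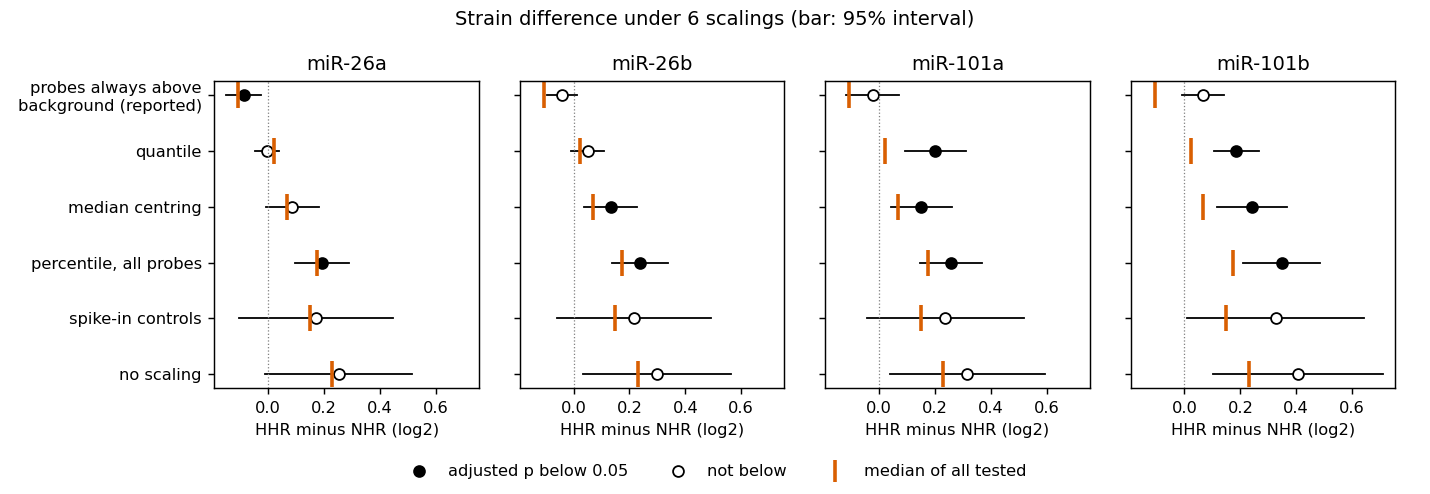
Log2 difference HHR minus NHR (horizontal axis) of each member under 6 scalings (rows), with the 95% interval, filled where the limma adjusted p is below 0.05; the vertical orange tick is the median of all 233 tested miRNAs under that scaling. miR-26a stays close to the tick in each row, at -0.087, -0.0040, 0.087, 0.19, 0.17 and 0.25 down the panel, and miR-101b lies right of it in each, where all rows but quantile shift a member and the median together.

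A scaling by 1 factor cancels in the ratio of 2 miRNAs on the same array, so the 6 pairs of members were compared as within-array log2 ratios. A ratio shows unequal change of its 2 members and does not show which of them moved. The 6 ratios are built from the same 4 miRNAs, so their results are not independent. How many pairs of other miRNAs would pass the same test was not determined, while 54.5% of all tested miRNAs were called for strain. The calls below are therefore not a trait shown to be particular to these families. The ratio of miR-26a over miR-101b was 4.15, 4.25, 4.26 and 4.19 in HHR females and 4.15, 4.26, 4.23 and 4.28 in HHR males, against 4.41, 4.39, 4.31 and 4.40 in NHR females and 4.42, 4.35, 4.51 and 4.24 in NHR males. All NHR arrays but male 4 lay above all HHR arrays. The difference was -0.154 ± 0.034 (SE, n = 8 each; exact permutation test, two-sided, p = 0.000777, adjusted over the 6 pairs p = 0.00466). All 8 HHR values lay below the NHR median.

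Among the other pairs across the families, miR-26b over miR-101b was also lower in HHR, with a difference of -0.109 ± 0.035 (SE, n = 8 each; exact permutation test, two-sided, adjusted p = 0.0303), with 8 of 8 HHR values below the NHR median. miR-26a over miR-101a was lower, with a difference of -0.064 ± 0.026 (adjusted permutation p = 0.0387, 7 of 8 HHR values below the NHR median). miR-26b over miR-101a differed by -0.019 ± 0.031 (adjusted permutation p = 0.547). Both calls turned positive with a normexp background (0.075 for miR-26b over miR-101b and 0.133 for miR-26a over miR-101a) and in the authors' deposited table (0.089 and 0.143). With quantile normalization miR-26a over miR-101a was -0.206 (adjusted permutation p = 0.00140).

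Within the families, miR-26a over miR-26b was lower in HHR, with a difference of -0.045 ± 0.016 (SE, n = 8 each; exact permutation test, two-sided, adjusted p = 0.0361). Its ratio ranged between 1.70 and 1.77 in HHR and between 1.73 and 1.83 in NHR. The difference was close to 0 with a normexp background (-0.0086) and in the authors' deposited table (-0.0025). It was not called with quantile normalization (-0.054, adjusted permutation p = 0.174) or within slide 1 (-0.036) or slide 2 (-0.055, adjusted permutation p = 0.171 for each slide). miR-101b over miR-101a differed by 0.090 ± 0.044 (adjusted permutation p = 0.0707), with ranges of 0.89 to 1.13 in HHR and 0.78 to 1.06 in NHR. On slide 1 this difference was 0.184, with all 4 HHR arrays above all 4 NHR arrays, on slide 2 it was -0.0035, and on bright arrays it was 0.0096. Single arrays decided some of these calls. miR-26a over miR-26b was no longer called in 4 of the 16 fits that left out 1 array (HHR female 2, HHR male 1, HHR male 3 or NHR male 3), and miR-26a over miR-101a in 9 of 16 (HHR females 2, 3 and 4, HHR males 2 and 4, NHR female 4, and NHR males 2, 3 and 4, each left out alone). miR-26b over miR-101b was not called without NHR male 3, and miR-26a over miR-101b was called in all 16.

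The ratios that hold miR-101b also moved with array brightness. The ratios without it kept their size on bright arrays alone, with none called there. They were -0.045 (miR-26a over miR-26b), -0.064 (miR-26a over miR-101a) and -0.019 (miR-26b over miR-101a). Those with miR-101a did not keep their size between the slides. On slide 1 and slide 2, miR-26a over miR-101a differed by -0.0036 and -0.124, and miR-26b over miR-101a by 0.032 and -0.069. On the 8 HHR arrays miR-26a over miR-101b was 4.15 to 4.28, against 4.24 to 4.35 on the 3 bright NHR arrays and 4.39 to 4.51 on the 5 dim NHR arrays. On bright arrays alone (8 HHR and 3 NHR) the difference was -0.074 (adjusted permutation p = 0.158, over 6 pairs), and miR-26b over miR-101b differed by -0.028 (adjusted permutation p = 0.742). Within slide 1 miR-26a over miR-101b differed by -0.188 and within slide 2 by -0.121 (adjusted exact permutation p = 0.0571 and 0.171, n = 4 each, with 0.0286 the smallest unadjusted p that 70 splits allow). Its sign was the same on both slides, but it turned to 0.066 with a normexp background and to 0.086 in the authors' deposited table. The part of array brightness in the difference was not tested further.

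**Figure D5:**
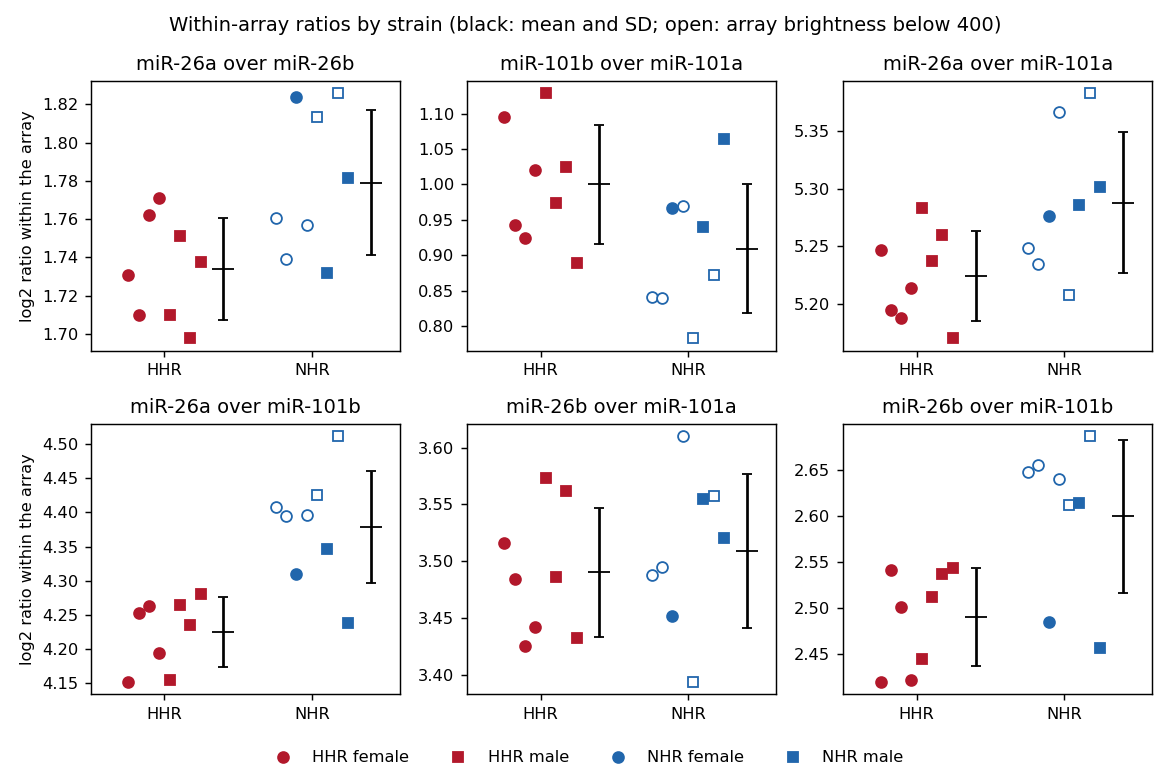
Within-array log2 ratio (vertical axes, not starting at 0) of the 6 pairs of members on each array, HHR left and NHR right, circles for females and squares for males, open where array brightness was below 400; black bars give the mean and SD of 8 arrays. For miR-26a over miR-101b the HHR arrays lie at 4.15 to 4.28 and the open NHR arrays at 4.39 to 4.51, with the 3 filled NHR arrays between 4.24 and 4.35.

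Which miRNAs tracked the members was described by the SD over the 16 arrays of the within-array log2 ratio, among the 185 other miRNAs detected on all arrays. These arrays share their scaling and both strains, so the measure is a description. For miR-26a the closest were miR-148b-3p (SD 0.038), miR-26b (0.039) and miR-16 (0.040), against a median SD of 0.116 over all 185. For miR-26b they were miR-148b-3p (0.036), miR-322 (0.038) and miR-26a (0.039), with a median of 0.120. The 2 members of the miR-26 family were thus among the 3 closest miRNAs of each other. The part of shared probe binding in this closeness was not tested.

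The miR-101 members were not. For miR-101a the closest were miR-125b-5p (SD 0.056), miR-26a (0.060) and miR-99a (0.061), and miR-101b took only place 49 of 185 (0.097). For miR-101b the closest were miR-20b-5p (0.046), miR-450a (0.046) and miR-18a (0.049), and miR-101a took place 26. The spread between spots of the miR-101a probes, given above, also enters these SDs. Of the closest miRNAs, miR-148b-3p (-0.076 ± 0.023, limma adjusted p = 0.0136) and miR-16 (-0.106 ± 0.028, limma adjusted p = 0.00687) were called lower in HHR under this scaling. Of all tested miRNAs 45.5% were called lower, and their median was -0.106. Both were called higher with the percentile over all probes (0.20 and 0.17), against 57.5% of all tested. The others did not pass the test. They were miR-322 (-0.064 ± 0.030), miR-125b-5p (-0.074 ± 0.044), miR-99a (0.0055 ± 0.029), miR-20b-5p (0.020 ± 0.025), miR-450a (0.080 ± 0.039) and miR-18a (0.075 ± 0.033).

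Other miRNAs reported to repress Ezh2 in at least 1 cell type were set beside the members. Of 12 on the array 8 were tested, 0 were called higher and 2 lower in HHR, with a median log2 difference of -0.048 against -0.106 over all tested. let-7a, a repressor of growth and cell cycle genes, differed by -0.12 ± 0.027 (SE, n = 8 each; limma adjusted p = 0.00295), with a mean level of 2394 in HHR and 2596 in NHR. miR-30d differed by -0.12 ± 0.033 (limma adjusted p = 0.00969), with a mean level of 276 in HHR and 299.6 in NHR. The 2 of 8 stood below the 45.5% of all tested miRNAs called lower. With the percentile over all probes both turned, to 0.16 each, and were called higher, against 57.5% of all tested. miR-214, which in mouse muscle cells represses Ezh2 during differentiation, differed by 0.16 ± 0.070 (limma adjusted p = 0.0747). It was called higher under the 5 other scalings, at 0.20 to 0.50 (limma adjusted p between 2.21e-05 and 0.0233). Of all tested, 57.5% were called higher with the percentile over all probes, 25.8% with median centring and 24.5% with quantile normalization. No scaling called 38 and spike-in scaling 19 of 233 higher. With a normexp background miR-214 was not called (0.13, limma adjusted p = 0.0603). miR-144, which shares 6 seed bases with miR-101, differed by 0.069 ± 0.11 (limma adjusted p = 0.598). miR-124, miR-137, miR-138 and miR-217 were detected on 0 arrays.

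Of 8 other miRNAs reported to oppose cardiac hypertrophy, 6 were tested, 1 was called higher and 1 lower in HHR, against 9.01% and 45.5% of all tested, with a median log2 difference of -0.060 against -0.106 over all tested. miR-378, encoded within Ppargc1b, a coactivator gene of mitochondrial metabolism, was higher by 0.41 ± 0.034 (SE, n = 8 each; limma adjusted p = 3.26e-07), with a mean level of 647 in HHR and 486 in NHR, and was called higher under each of the 6 scalings (0.41 to 0.75). miR-133b, a muscle miRNA, was lower, with a difference of -0.15 ± 0.031 (limma adjusted p = 0.00132) and a mean level of 6127 in HHR and 6799 in NHR. With the percentile over all probes it turned to 0.13 and was called higher, against 57.5% of all tested. miR-9 and miR-541 of that list were not tested, since they were detected on 0 arrays.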

How the data were processed

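Total RNA of 16 hearts, 100 ng each per the labels' protocols, was labelled with Cy3. It was hybridised to 1-colour Agilent rat miRNA arrays on 2 slides, taken as 1 array per animal. The scanner output was deposited by the authors. Spot intensities are linear, background-subtracted and not scaled between arrays, per the file headers, which name Agilent Feature Extraction 10.7.3.1. The detection and outlier flags (0 or 1) are those the authors deposited. A second file of the authors holds deposited log2 values per miRNA and array. How their background, offset and centring were set is not given in the sources used here. The submitters' processing notes name limma. That file served as an alternative, and its column medians lay between 6.13 and 6.15.

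Outlier and control spots were left out and the spots of a probe averaged. Arrays were scaled to a common 75th percentile of 258 probes, those that stood well above background on all 16 arrays. The probes of a miRNA were averaged, values were raised to a floor of 1.92 and log2 was taken. The 233 of 677 miRNAs detected on at least 4 arrays were fitted with limma 3.58.1 in R 4.3.3, with 1 mean per strain and sex, Benjamini-Hochberg adjustment over the 233 and a threshold of 0.05. The fit was run on simulated data with independent noise. These held no shared array brightness, slide or same-number deviation, so the run does not show how the fit behaves under them. Within-array ratios and array brightness were set against strain by exact permutation (two-sided, 12870 splits of 8 against 8 arrays), adjusted over the 6 pairs. The number of arrays limits the precision.

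Replicate numbers appear only in the titles. Over 24 pairs of same-numbered arrays of different groups, residuals correlated between -0.217 and 0.526, with 16 pairs above 0.1. Of the 16 arrays, 4 correlated best with their own number. The numbers were not used to pair arrays in the reported fits or the permutation tests, which leave out any deviation that same-numbered arrays share. A replicate block was an alternative for the fits only. Replicates 1 and 2 were on slide 1 and 3 and 4 on slide 2, each slide holding all 4 groups. The named miRNAs were the 4 members, the other arms, the 3 closest miRNAs of each member, up to 4 called miRNAs (or else the 2 with the smallest p) of each list, and the cell type markers. Values of miR-214 and of the list members that were not tested were added after the data were seen. The members, lists and tests were chosen with earlier results of these data known. Alternatives covered the signal column, normexp (offset 50), the scalings, the filter, the floor, the probe average, moderation, the authors' table, blocks, brightness as a covariate, each slide alone and leaving out each array. A restriction to arrays brighter than 400, brightness within each slide, and marker sums under other scalings were added after the data were seen.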

Additional observations from a re-analysis of the deposited data

Results flagged for a closer look

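Of 40 groups of 4 arrays examined for a single distant array (members and ratios, by strain and sex), 3 held one, where chance gives about 1 in 20 groups. In NHR females, array 3 had the lowest ratio of miR-26a over miR-101b, with a gap of 0.863 of the group's range, and the lowest ratio of miR-26b over miR-101b, with a gap of 0.909, both above the critical value of 0.829. That array was the bright one of its group, at 502.9 before scaling. In NHR males, array 1 had the highest level of miR-101a, 25.5, with a gap of 0.862 of the range. No strain difference of a member differed between the sexes by the test of the interaction.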

How the results depend on the processing

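The differences between strains were small beside the choices that make arrays comparable, and miR-101a was close enough to background that 1 of its probes failed the background test on 2 arrays. Of 19 alternatives, each other than leaving out an array, the strain difference of miR-26a kept its direction and its side of the threshold in 7, that of miR-26b in 12, of miR-101a in 10 and of miR-101b in 13. The filters, the higher floor, the moderation and the blocks left the estimates unchanged (miR-26a -0.087 in each). Direction could not turn in those alternatives, and only the p could change, so these counts are no measure of stability. The causes of the changes given here were not tested.

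With the percentile over all probes the log2 differences (HHR minus NHR) were 0.19 for miR-26a, 0.24 for miR-26b, 0.26 for miR-101a and 0.35 for miR-101b. With quantile normalization they were -0.0040, 0.050, 0.20 and 0.19 in that order, with median centring 0.087, 0.13, 0.15 and 0.24, and with no scaling 0.25, 0.30, 0.32 and 0.41. Spike-in scaling gave 0.17, 0.22, 0.24 and 0.33, the total gene signal -0.025, 0.020, 0.039 and 0.13, the normexp background -0.056, -0.048, -0.19 and -0.12, and the authors' values 0.22, 0.22, 0.077 and 0.13. Brightness as a covariate gave -0.079, -0.039, -0.024 and 0.0057. Slide 1 alone gave it -0.097 and slide 2 alone -0.078, where miR-101a was 0.047. On arrays brighter than 400 miR-26a was at -0.097 and miR-101b at -0.020.

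Leaving out each array gave -0.097 to -0.075 for miR-26a, -0.056 to -0.035 for miR-26b, -0.044 to 0.0016 for miR-101a, which turned positive without NHR male 1, and 0.053 to 0.090 for miR-101b. With a replicate block miR-26a was still called (limma adjusted p = 0.0370), and the sex difference had 1 called miRNA. The block changed no other call of a member.

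Of all tested miRNAs, the reported scaling called 127 for strain. The total gene signal called 70, no scaling 48, spike-in scaling 29, the authors' values 15, the brightness covariate 74, slide 1 alone 37, slide 2 alone 47 and bright arrays 61. In females, 105 were called, against 50 with the total gene signal, 42 with normexp, 65 with quantile normalization, 21 with no scaling, 67 with median centring, 9 with spike-in scaling, 6 in the authors' table, 61 with the brightness covariate, 24 and 32 on the slides and 49 on bright arrays. In males, 48 were called, against 23 with the total gene signal, 8 with normexp, 81 with the percentile over all probes, 5 with no scaling, 4 with spike-in scaling, 2 in the authors' table, 9 and 16 on the slides and 23 on bright arrays. Requiring detection on all 16 arrays called 3 for sex. Leaving out each array gave 106 to 128 for strain, 69 to 114 in females, 33 to 51 in males, 0 to 10 for sex and 0 for the interaction. Called higher were 21 of 127 for strain with the reported scaling, but 2 of 165 with normexp, 134 of 155 with the percentile over all probes, 57 of 95 with quantile normalization, 60 of 87 with median centring, 38 of 48 with no scaling, 19 of 29 with spike-in scaling, 34 of 70 with the total gene signal and 13 of 15 in the authors' table.

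For the ratios, normexp gave -0.0086 (miR-26a over miR-26b), 0.13 (miR-26a over miR-101a), 0.066 (miR-26a over miR-101b), 0.14 (miR-26b over miR-101a) and 0.075 (miR-26b over miR-101b). The authors' table gave -0.0025, 0.14, 0.086, 0.15 and 0.089 in that order. Quantile normalization gave -0.054, -0.206, -0.190, -0.152 and -0.135 in that order and -0.016 for miR-101b over miR-101a, and the mean of log2 probe values gave -0.061 for miR-26a over miR-101a. On slide 1 alone miR-26a over miR-26b was -0.036, miR-26a over miR-101a -0.0036, miR-26a over miR-101b -0.188, miR-26b over miR-101a 0.032, miR-26b over miR-101b -0.152 and miR-101b over miR-101a 0.184. On slide 2 alone the first 3 of these were -0.055, -0.124 and -0.121, miR-26b over miR-101b was -0.066, and miR-101b over miR-101a was -0.0035. On bright arrays they were -0.045 (miR-26a over miR-26b), -0.064 (miR-26a over miR-101a), -0.074 (miR-26a over miR-101b), -0.028 (miR-26b over miR-101b) and 0.0096 (miR-101b over miR-101a). Leaving out each array gave -0.052 to -0.039 for miR-26a over miR-26b, 0.072 to 0.113 for miR-101b over miR-101a, which was called without HHR male 4 or NHR male 4, and -0.075 to -0.050 for miR-26a over miR-101a. It gave -0.174 to -0.135 for miR-26a over miR-101b, -0.035 to -0.0043 for miR-26b over miR-101a and -0.130 to -0.097 for miR-26b over miR-101b. The brightness gap was 106.4 on slide 1 and 76.0 on slide 2, and 79.2 to 109.0 with each array left out.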
